A study of Danio rerio with 10 samples.

Results

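The heat shock proteins and their DnaJ cochaperones were described in whole zebrafish larvae with and without a functional *aldh2.1* gene. Members were all genes whose symbol, ignoring case, starts with hsp or dnaj, except *hspg2*, *hspbp1* and *hspbap1*, which only share the letters. The rule gave 87 of the 32520 genes in the files, 35 with hsp symbols and 52 with dnaj symbols. By the place or family of the human namesake, 3 are cytosolic Hsp90 proteins, 16 are cytosolic Hsp70 or Hsp110 proteins, 17 belong to the endoplasmic reticulum (ER), 12 to mitochondria, 10 are small heat shock proteins and 29 are other DnaJ proteins. Symbols came from a gene name table that gives some duplicated genes the same symbol, and such copies are told apart by their Ensembl identifier.

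RNA was sequenced from whole larvae at 120 h post fertilization (hpf), without any treatment, in 5 libraries of *aldh2.1-/-* and 5 libraries of *aldh2.1+/+* larvae, each from 1 clutch of 50 pooled larvae. Both genotypes carry the endothelial reporter Tg(fli1:EGFP), and the mutant is a single CRISPR/Cas9 line with a deletion of 5 bases in exon 3 of *aldh2.1*, which encodes an aldehyde dehydrogenase. The labels number the clutches 1, 2, 3, 5 and 6 in each genotype and do not say whether they had separate parents, so each p-value measures the spread between these pools. In whole larvae, fewer cells of a type and less RNA per cell cannot be told apart.

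Heat shock proteins are molecular chaperones that bind unfolded stretches of other proteins and keep them from clumping. Hsp70 proteins bind and release their clients in a cycle driven by ATP, DnaJ proteins deliver the clients and speed up the ATP step, Hsp110 proteins exchange the nucleotide, and Hsp90 proteins finish the folding of kinases, receptors and, in muscle, myosin. Small heat shock proteins hold clients without ATP and are abundant in muscle and lens, and the transcription factor Hsf1 switches on the inducible members when proteins unfold, as after heat or reactive aldehydes.

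Libraries held between 19792930 and 20703518 counts. Clutches of 1 genotype varied beyond counting error (chi-square over its degrees of freedom 7.47 to 77.1), most of all *aldh2.1-/-* clutches 1 and 5. These clutches also held the ends of several tissue marker sums, and values without 1 of them are given for the members they move most. As a check of the labels, the gene listed as aldh2 (ENSDARG00000089924), taken here as *aldh2.1*, had 2.75 to 7.35 CPM (counts scaled to the library total) in *aldh2.1-/-* and 10.2 to 12.5 CPM in *aldh2.1+/+* libraries, with an adjusted p of 0.134 in edgeR. The related *aldh2.2* was further apart, at 1.57 to 2.16 and 12.4 to 16.3 CPM, with an adjusted p of 2.08e-07.

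The chaperone transcripts were dominated by a pair of genes. Levels in TPM, which are scaled for transcript length and can be compared between genes, averaged 1209 in *aldh2.1+/+* libraries for *hspa8* ENSDARG00000068992, the constitutive Hsp70 of the cytosol, and 735 for *hsp90ab1*, the constitutive Hsp90. Together they made up 64.6% of the summed TPM of all members in *aldh2.1+/+* larvae, with a range over the 10 libraries of 60.0% to 66.1%. No member lay between 100 and 500 TPM, 17 lay between 20 and 100 TPM, 68 lay below 20 TPM and 35 of these lay below 5 TPM, as means over all libraries. All members together took 0.275% to 0.335% of the TPM of a library.

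**Figure D1:**
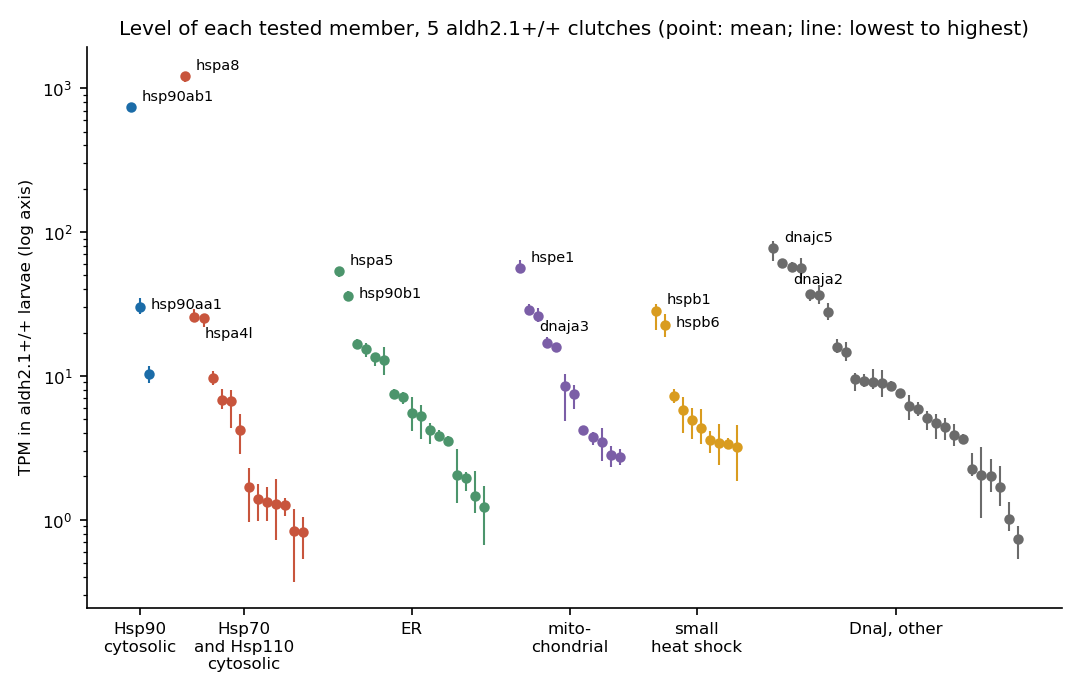
Level of each of the 84 members with enough counts to be tested, in TPM on a log axis, grouped by class on the horizontal axis, with a point at the mean of the 5 *aldh2.1+/+* clutches and a line from the lowest to the highest clutch. The cytosolic genes *hspa8* ENSDARG00000068992 and *hsp90ab1* stand above 500 TPM, and the means of all other members lie below 100 TPM.

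Copies with the same name could differ widely or little in level. The *dnaja2* copies ENSDARG00000104066 and ENSDARG00000010745 averaged 60.7 and 57.3 TPM in *aldh2.1+/+* libraries. The other *hspa8* copy, ENSDARG00000037403, averaged 1.28 TPM in *aldh2.1+/+* libraries, and over all libraries the more abundant copy was 805 times as high. The Hsp90 gene *hsp90aa1* averaged 30.3 TPM and *hsp90aa1.1*, known in zebrafish for folding myosin in skeletal muscle, 10.2 TPM in *aldh2.1+/+* larvae. The stress-inducible Hsp70 genes were low at rest, with 4.19 TPM for *hsp70.3*, 1.70 TPM for *hsp70l* and 1.38 TPM for *hsp70.1*.

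In the ER, *hspa5*, the lumenal Hsp70 known as BiP, averaged 53.8 TPM in *aldh2.1+/+* larvae, *hsp90b1*, the lumenal Hsp90 known as Grp94, 36.1 TPM, and *dnajb11*, a BiP cochaperone, 15.5 TPM. In mitochondria, *hspe1* and *hspd1*, the lid and the barrel of the folding chamber of the matrix, averaged 56.1 and 17.0 TPM, *hspa9*, the matrix Hsp70, 26.0 TPM and *dnaja3*, its DnaJ partner, 28.7 TPM. Among other DnaJ genes the highest were *dnajc5* ENSDARG00000042948, the cysteine string protein of synaptic vesicles, at 77.5 TPM, *dnaja2* ENSDARG00000104066, a partner of Hsc70, at 60.7 TPM, and *dnajc8*, a nuclear protein found with the spliceosome, at 56.6 TPM. Of the small heat shock genes, *hspb1* (Hsp27) and *hspb6* (Hsp20), both known in muscle, were highest at 28.4 and 22.5 TPM.

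The comparison of genotypes asks whether loss of Aldh2.1 came with a change in chaperone transcripts. Counts were compared with the edgeR quasi-likelihood test over 21532 genes that passed a filter on low counts, with Benjamini-Hochberg adjustment. Of the 87 members, 84 passed the filter, and *dnajc5b*, *hspa12a.1* and *hspa12a.2* were too low to be tested, with means of 3.2, 0.3 and 0.1 counts per library. None of the 84 had an adjusted p under 0.05 in edgeR, beside 2 of all tested genes (0.00929%), and the smallest adjusted p of a member was 0.900. The adjusted count was also 0 with DESeq2 and with limma on log2(TPM + pseudocount).

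At an unadjusted p under 0.05 in edgeR there were 8 members (9.52%), all with higher values in *aldh2.1-/-*, beside 5.04% of all tested genes, of which 2.83% were higher and 2.21% lower. DESeq2 gave 9 such members, beside 4.33% of all genes it tested. With pseudocounts of 1 and 0.1, limma gave 7 and 8, beside 4.19% and 4.14% of all tested genes. The 8 were *hspb9*, *hspb1* and *hspb9l* of the small heat shock genes, *hsp70l* of the cytosolic Hsp70 genes, *hsp90b1* and *dnajb11* of the ER, and *dnajb6b* and *dnaja*. Of the 84, 59 had a log2 fold change above 0, beside 52.1% of all tested genes, with a median of 0.07 beside 0.01 over all tested genes. Most differences were small, with 63 of the 84 within 0.2 log2 units of 0. This is close to the share of all tested genes, 15842 of 21532. No member separated the genotypes without overlap in log2 CPM, which 0.725% of all tested genes did.

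**Figure D2:**
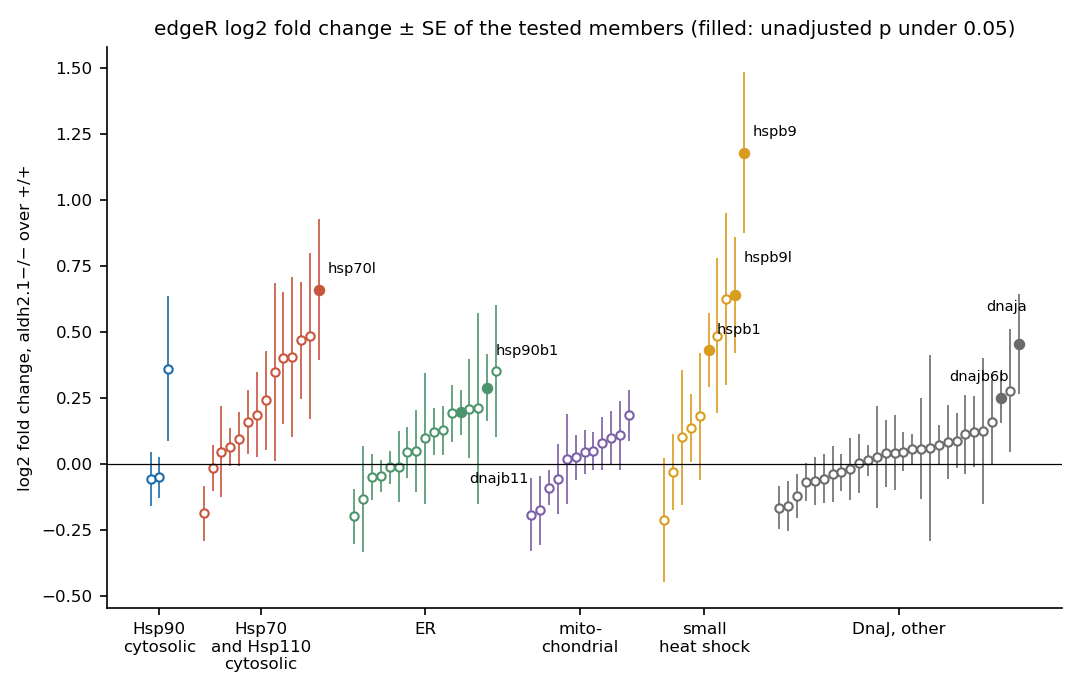
Log2 fold change of each tested member (*aldh2.1-/-* over *aldh2.1+/+*, edgeR) by class, with its SE as a line and filled, labelled points for the members with an unadjusted p under 0.05. The 3 labelled small heat shock genes reach 0.43, 0.64 and 1.18, while the points of the mitochondrial genes all lie within 0.2 of 0.

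The small heat shock genes had the highest class median, a log2 fold change of 0.31. Of the 10, 8 were above 0, beside 52.1% of all tested genes. An unadjusted p under 0.05 in edgeR was found for 3, beside 5.04% of all tested genes. The largest difference of any member was in *hspb9*. It measured 6.96, 12.5, 7.41, 3.31 and 9.63 CPM in *aldh2.1-/-* clutches 1, 2, 3, 5 and 6, and 2.85, 2.24, 4.13, 4.34 and 4.03 CPM in the *aldh2.1+/+* clutches of the same numbers. Clutches 1, 2, 3 and 6 of *aldh2.1-/-* were above every *aldh2.1+/+* clutch, and clutch 5 was inside their range. The means were 7.96 ± 3.41 and 3.52 ± 0.92 CPM (SD, n = 5 each), a ratio of 2.26 in the fit, with a log2 fold change of 1.18 (SE 0.30), an unadjusted p of 0.0022 and an adjusted p of 0.900 in edgeR. An exact permutation test on log2 CPM (two-sided) gave p = 0.0317, where 5 against 5 libraries cannot give less than 0.00794. The gene averaged 117 counts per library.

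The gene *hspb9l* had the same arrangement. It measured 6.42, 5.55, 6.66, 3.46 and 6.08 CPM in *aldh2.1-/-* and 3.76, 3.42, 5.41, 2.89 and 2.64 CPM in *aldh2.1+/+* clutches 1, 2, 3, 5 and 6. All mutant clutches but clutch 5 lay above the highest *aldh2.1+/+* clutch. Its log2 fold change was 0.64 (SE 0.22), with an unadjusted p of 0.0119 and an adjusted p of 0.921 in edgeR, and an exact permutation p of 0.0317.

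In *hspb1*, whose product binds actin and holds unfolded clients, the values were 31.7, 30.6, 26.5, 21.0 and 24.3 CPM in *aldh2.1-/-* and 22.3, 20.3, 22.9, 14.3 and 19.8 CPM in *aldh2.1+/+* clutches. Clutch 5 was the lowest of its genotype in both groups, and 4 of the 5 mutant clutches exceeded every *aldh2.1+/+* clutch. The exact permutation p was 0.0238. The 3 genes stayed at an unadjusted p under 0.05 in edgeR in all 10 fits that left out 1 library.

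In *hspb2*, too, 4 of the 5 mutant clutches exceeded every *aldh2.1+/+* clutch. It measured 5.48, 3.21, 3.63, 1.36 and 2.88 CPM in *aldh2.1-/-* and 1.61 to 2.69 CPM in *aldh2.1+/+* clutches. Its clutch 5 was below all *aldh2.1+/+* clutches, and the exact permutation p was 0.294. In the remaining small heat shock genes fewer mutant clutches stood above the *aldh2.1+/+* range. The muscle-associated *hspb6* measured 54.1, 66.8, 37.8, 21.7 and 48.7 CPM in *aldh2.1-/-* and 49.0, 44.0, 40.0, 34.1 and 35.0 CPM in *aldh2.1+/+* clutches. Its mutant values spanned the whole *aldh2.1+/+* range and beyond it on both sides. Its log2 fold change was 0.18 (SE 0.24), and it was 0.36 (SE 0.16) without clutch 5, 0.11 (SE 0.28) without clutch 1 and 0.01 (SE 0.22) without clutch 2 of *aldh2.1-/-*. The log2 fold changes were 0.62 (SE 0.33) for *hspb3*, 0.49 (SE 0.29) for *hspb2*, 0.14 (SE 0.13) for *hspb8*, a partner of Bag3 in the clearance of damaged muscle proteins, and 0.10 (SE 0.26) for *hspb7*, known in heart. The log2 fold changes below 0 belonged to *hspb15* at -0.03 (SE 0.14) and *hspb11* at -0.21 (SE 0.23). The latter measured 1.08, 1.66, 1.72, 1.47 and 1.34 CPM in *aldh2.1-/-* and 2.29, 1.27, 2.09, 1.2 and 1.58 CPM in *aldh2.1+/+* clutches, which overlapped.

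**Figure D3:**
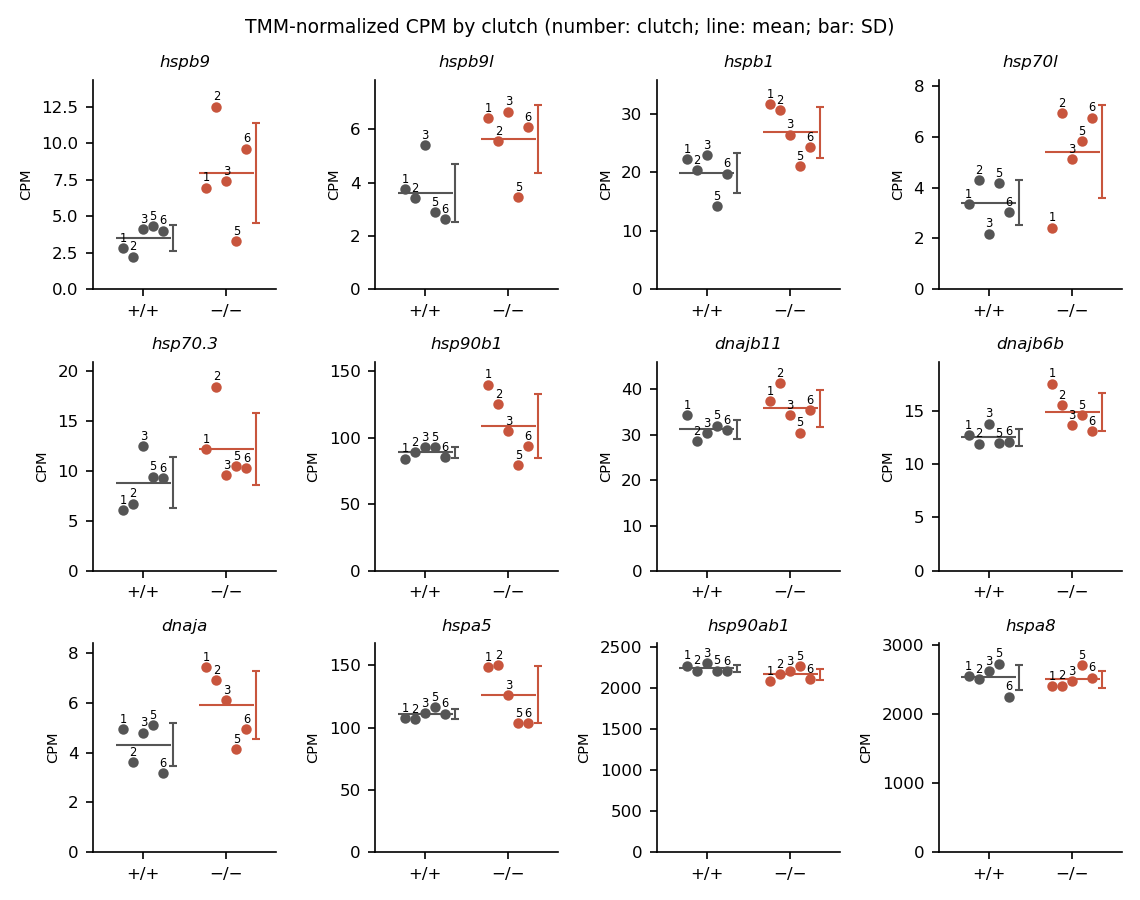
Level of 12 members in each clutch, in CPM on linear axes that start at 0, with *aldh2.1-/-* and *aldh2.1+/+* side by side, the clutch number above each point, a line at the mean and a bar for the SD. In *hspb9*, *hspb9l* and *hspb1*, 4 *aldh2.1-/-* clutches lie above all *aldh2.1+/+* clutches and clutch 5 lies among them.

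Summed over the 10 small heat shock genes, the level was 143, 138, 119, 71.5 and 111 TPM in *aldh2.1-/-* clutches 1, 2, 3, 5 and 6, with a mean of 116 ± 28.3 TPM, and 86.8 ± 6.94 TPM in *aldh2.1+/+* (SD, n = 5 each). The summed TPM of 14 skeletal muscle markers was likewise highest in clutch 1 and lowest in clutch 5 of *aldh2.1-/-*. It was 75836, 64779, 62937, 41932 and 62936 TPM in *aldh2.1-/-* clutches 1, 2, 3, 5 and 6, and 43159 to 62638 TPM in *aldh2.1+/+*. Clutches 1, 2, 3 and 6 were above every *aldh2.1+/+* clutch, 3 and 6 only narrowly, and clutch 5 was below them all. Of the 14 markers, 12 were above 0 in log2 fold change and 1 had an unadjusted p under 0.05. The sum of 5 erythroid markers was 560, 467, 531, 204 and 498 TPM in *aldh2.1-/-* and 280 to 330 TPM in *aldh2.1+/+*, so that clutches 1, 2, 3 and 6 were above and clutch 5 below every *aldh2.1+/+* clutch, with 4 of 5 markers above 0 and 2 at an unadjusted p under 0.05. Lens and photoreceptor sums had the opposite ends, lowest in clutch 1 and highest in clutch 5 of *aldh2.1-/-*, at 7146 and 10878 TPM for lens and 8831 and 15592 TPM for photoreceptors. Sums of heart, liver, intestine, exocrine pancreas, neuron and epidermis markers did not have both ends in these clutches. The heart sum was highest in *aldh2.1+/+* clutch 3 and lowest in *aldh2.1-/-* clutch 6, with 8 of 9 markers below 0. Beside these marker counts, 52.1% of all tested genes were above 0 and 5.04% had an unadjusted p under 0.05 in edgeR. No marker of these lists was at 0 in all libraries, and the part of tissue composition in the small heat shock differences was not tested.

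**Figure D4:**
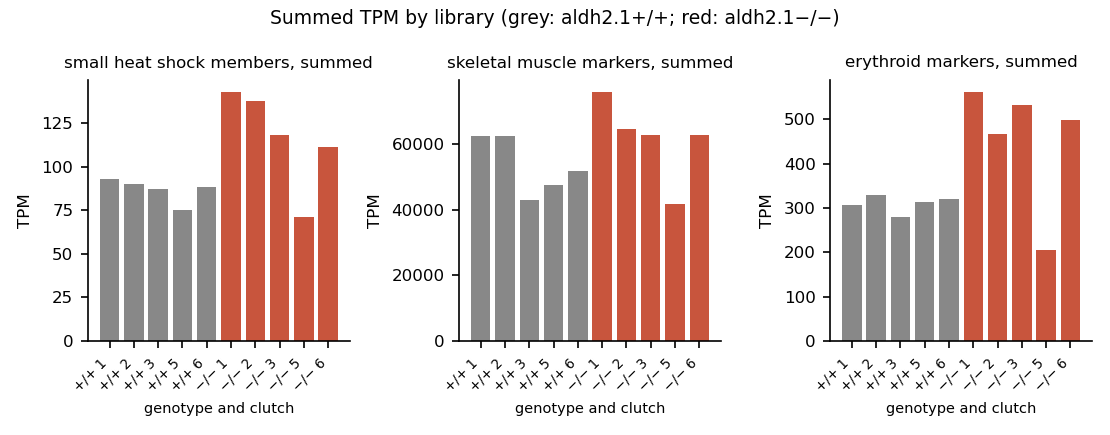
Bars of the summed TPM of the 10 small heat shock genes, of 14 skeletal muscle markers and of 5 erythroid markers in each library, with *aldh2.1+/+* clutches in grey and *aldh2.1-/-* clutches in red. Clutch 5 of *aldh2.1-/-* is the lowest in all 3 sums and clutch 1 the highest.

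Without *aldh2.1-/-* clutch 5, the differences of *hspb9*, *hspb9l* and *hspb1* were larger, which follows from clutch 5 being their lowest mutant clutch. The log2 fold change of *hspb9* was 1.37 (SE 0.22) with an adjusted p of 0.0328 in edgeR, making it the only member called among 48 genes called (0.221% of all tested genes). With clutch 1 left out as well, a choice made after seeing the data, it was 1.48 with an adjusted p of 0.0376 in edgeR. That fit called 21 genes (0.0959% of all tested genes). Without clutch 5 alone, 15 members had an unadjusted p under 0.05 (17.9%), beside 12.2% of all tested genes. Those with higher values in *aldh2.1-/-* numbered 14 of the 84 (16.7%), beside 6.63% of all tested genes. The genotypes then did not overlap for 6 members, with *hspb9*, *hspb9l*, *hspb1*, *hspb2* and *hsp90b1* higher and *hsp90ab1* lower in *aldh2.1-/-*, beside 3.87% of all tested genes without overlap and 1.73% without overlap and higher. In each of these 6, clutch 5 was the only mutant clutch not on that side of the *aldh2.1+/+* range. Leaving it out therefore fixed their separation in advance. For *hsp90ab1* it also rests on a near tie between clutch 3 of *aldh2.1-/-* and clutch 6 of *aldh2.1+/+*.

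Among the 14 cytosolic Hsp70 and Hsp110 genes tested, 12 were above 0 (85.7%), beside 52.1% of all tested genes. Their median was 0.21 in log2 fold change. DESeq2 and both limma fits each put 2 of the 14 at an unadjusted p under 0.05, beside 4.14% to 4.33% of all genes each tool tested. In edgeR it was 1 (7.14%), beside 5.04% of all tested genes. That gene was *hsp70l*, a heat-inducible Hsp70 of zebrafish, which measured 2.43, 6.91, 5.12, 5.82 and 6.75 CPM in *aldh2.1-/-* and 3.35, 4.29, 2.19, 4.19 and 3.02 CPM in *aldh2.1+/+* clutches. Here clutch 1 was the mutant clutch inside the *aldh2.1+/+* range, and the other 4 were above it. The log2 fold change was 0.66 (SE 0.27) with an unadjusted p of 0.0279 and an adjusted p of 0.921 in edgeR, and the exact permutation p was 0.111. In 6 of the 10 fits that left out 1 library the unadjusted p stayed under 0.05.

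The inducible *hsp70.3* measured 12.2, 18.4, 9.55, 10.4 and 10.2 CPM in *aldh2.1-/-* and 6.05, 6.73, 12.5, 9.42 and 9.26 CPM in *aldh2.1+/+* clutches, a log2 fold change of 0.47 (SE 0.22). Clutch 2 of *aldh2.1-/-* was the highest, and without it the log2 fold change was 0.27 (SE 0.19), while *aldh2.1+/+* clutch 3 stood above 4 of the 5 mutant clutches. The inducible *hsp70.1* measured 2.43, 3.31, 3.12, 4.04 and 3.40 CPM in *aldh2.1-/-* and 1.98, 3.32, 3.21, 2.89 and 2.35 CPM in *aldh2.1+/+* clutches, with a log2 fold change of 0.24 (SE 0.19). Clutches 5 and 6 of *aldh2.1-/-* were above the *aldh2.1+/+* range, and without clutch 5 the log2 fold change was 0.15 (SE 0.19). Reads that fit more than 1 of these near-identical genes were divided by the quantifier, so the split between them is uncertain. Their sum was 20.8 ± 4.61 CPM in *aldh2.1-/-* and 14.9 ± 2.46 CPM in *aldh2.1+/+* (SD, n = 5 each), with ranges of 17.0 to 28.6 and 11.4 to 17.9 CPM that overlapped.

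The abundant *hspa8* ENSDARG00000068992 measured 2410, 2416, 2483, 2712 and 2532 CPM in *aldh2.1-/-* and 2552, 2511, 2626, 2733 and 2255 CPM in *aldh2.1+/+* clutches. Both groups covered much the same range, with a log2 fold change of -0.01 (SE 0.09).

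The Hsp110 genes encode nucleotide exchange factors of Hsp70. For *hspa4* ENSDARG00000018989 the values were 69.7, 78.1, 70.24, 62.6 and 74.5 CPM in *aldh2.1-/-* and 66.8, 67.4, 64.9, 74.9 and 65.3 CPM in *aldh2.1+/+* clutches. The related *hspa4l* measured 55.3, 73.3, 62.3, 85.8 and 77.8 CPM in *aldh2.1-/-* and 79.7, 84.5, 83.3, 76.9 and 78.8 CPM in *aldh2.1+/+* clutches, where mutant clutches 1, 2 and 3 were below the *aldh2.1+/+* range and clutch 5 above it. The log2 fold changes were 0.07 (SE 0.07) for *hspa4* ENSDARG00000018989, 0.16 (SE 0.12) for *hspa4* ENSDARG00000004754, 0.05 (SE 0.17) for *hsph1* and -0.19 (SE 0.10) for *hspa4l*. Without *aldh2.1-/-* clutch 5, *hspa4l* was at -0.26 with an unadjusted p of 0.0154 in edgeR, and without clutch 1 it was at -0.11 (SE 0.08). The Hsp70 relative *hspa12a* measured 5.52, 2.63, 4.98, 2.68 and 1.6 CPM in *aldh2.1-/-* and 1.78, 1.95, 2.60, 2.79 and 3.36 CPM in *aldh2.1+/+* clutches. Its relative *hspa12b*, known in endothelium, measured 4.54, 2.09, 2.52, 1.36 and 1.54 CPM in *aldh2.1-/-* and 1.12, 1.51, 1.84, 2.74 and 2.30 CPM in *aldh2.1+/+* clutches. Both were highest in clutch 1 of *aldh2.1-/-*, and the log2 fold changes were 0.48 (SE 0.31) and 0.35 (SE 0.34). Without that clutch they were 0.26 (SE 0.30) and -0.01 (SE 0.28).

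Of the Hsp90 genes, *hsp90ab1* measured 2086, 2168, 2204, 2265 and 2112 CPM in *aldh2.1-/-* and 2275, 2215, 2308, 2214 and 2204 CPM in *aldh2.1+/+* clutches. Clutch 5 of *aldh2.1-/-* was inside the *aldh2.1+/+* range and clutches 1, 2 and 6 were below it. Clutch 3 of *aldh2.1-/-* was nearly level with the lowest *aldh2.1+/+* clutch, both at 2204 CPM. The SD of log2 CPM within genotypes was 0.04, against a median of 0.20 over the tested members. The log2 fold change was -0.05 (SE 0.08) and the exact permutation p was 0.0873. The muscle gene *hsp90aa1.1* measured 42.0, 35.6, 31.1, 11.4 and 22.0 CPM in *aldh2.1-/-* and 25.3, 19.8, 22.3, 25.2 and 18.3 CPM in *aldh2.1+/+* clutches. Its clutches 1, 2 and 3 were above and clutch 5 below every *aldh2.1+/+* clutch, with a log2 fold change of 0.36 (SE 0.27). Without clutch 5 it was 0.56 (SE 0.16), and without clutch 1 it was 0.18 (SE 0.28). The values of *hsp90aa1* were 54.4, 76.3, 68.0, 77.2 and 70.08 CPM in *aldh2.1-/-* and 68.6, 77.0, 75.8, 78.6 and 60.1 CPM in *aldh2.1+/+* clutches, with ranges that overlapped and a log2 fold change of -0.06 (SE 0.10) between genotypes.

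Among the 17 ER genes, 11 were above 0 and 6 below, with a median log2 fold change of 0.10. An unadjusted p under 0.05 was found for 2 in edgeR and DESeq2 and 0 in limma on TPM. The shares of all genes each tool tested were 5.04% in edgeR, 4.33% in DESeq2, which was run without the filter on low counts, and 4.14% to 4.19% in limma. With library size alone in place of TMM scaling, 13 of 17 were above 0 (76.5% in place of 64.7%). The share of all tested genes above 0 rose as well, to 59.8% in place of 52.1%. The values of *hsp90b1* were 140.0, 125, 105, 79.7 and 93.6 CPM in *aldh2.1-/-* and 84.3, 89.1, 92.9, 93.0 and 85.6 CPM in *aldh2.1+/+* clutches. Clutches 1, 2, 3 and 6 were above every *aldh2.1+/+* clutch and clutch 5 was below them all. For this gene the log2 fold change was 0.29 (SE 0.13), with an unadjusted p of 0.0412 in edgeR and an exact permutation p of 0.127. The log2 fold change was 0.38 (SE 0.10) without clutch 5. Without clutch 1, the highest library, it was 0.18 (SE 0.11) with an unadjusted p of 0.111. Of the 10 fits that left out 1 library, the unadjusted p stayed under 0.05 in 2, those without clutch 5 or clutch 6 of *aldh2.1-/-*. As in the muscle and erythroid marker sums, clutch 1 was the highest and clutch 5 the lowest library for *hsp90b1* and for *hsp90aa1.1*, and the part of tissue composition in these genes was not tested.

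The Hsp70 of the ER, *hspa5*, measured 149, 150.4, 126, 104 and 103 CPM in *aldh2.1-/-* and 107, 107, 111, 117 and 111 CPM in *aldh2.1+/+* clutches. Clutches 1, 2 and 3 were above and clutches 5 and 6 below all *aldh2.1+/+* clutches, with a log2 fold change of 0.19 (SE 0.11). It was 0.13 (SE 0.10) without clutch 1 and 0.12 (SE 0.10) without clutch 2 of *aldh2.1-/-*. Their cochaperone *dnajb11* measured 37.5, 41.3, 34.2, 30.4 and 35.5 CPM in *aldh2.1-/-* and 34.2, 28.6, 30.3, 32.0 and 30.9 CPM in *aldh2.1+/+* clutches. Clutches 1, 2 and 6 of *aldh2.1-/-* were above the *aldh2.1+/+* range. Its log2 fold change was 0.20 (SE 0.09), with means of 35.8 ± 4.01 and 31.2 ± 2.09 CPM (SD, n = 5 each). The unadjusted p was 0.0385 in edgeR, which stayed under 0.05 in 3 of the 10 fits that left out 1 library. The exact permutation p was 0.0635.

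The membrane-anchored *dnajc18* varied little, at 40.2, 41.0, 39.8, 36.8 and 41.2 CPM in *aldh2.1-/-* and 43.6, 38.3, 40.6, 38.7 and 39.4 CPM in *aldh2.1+/+* clutches, with a log2 fold change of -0.01 (SE 0.06). The low copy *dnajb9* ENSDARG00000016886, whose human namesake is induced by ER stress, measured 1.66, 1.22, 0.466, 0.892 and 1.03 CPM in *aldh2.1-/-* and 0.406, 0.683, 0.969, 1.2 and 1.30 CPM in *aldh2.1+/+* clutches. Its clutches spread widely in both genotypes. Other BiP cochaperones had log2 fold changes of 0.05 (SE 0.15) for *dnajc3a*, 0.13 (SE 0.09) for *dnajc3b*, -0.01 (SE 0.13) for *dnajc10*, a reductase of the ER, and -0.13 (SE 0.20) for *dnajb9* ENSDARG00000052072. Over the 17 genes, the median deviation from the *aldh2.1+/+* mean was 0.26, 0.22, -0.001, -0.09 and -0.06 log2 units in *aldh2.1-/-* clutches 1, 2, 3, 5 and 6. In the *aldh2.1+/+* clutches it ranged from -0.07 to 0.08.

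The mitochondrial genes had the narrowest range of log2 fold changes among the classes, from -0.19 to 0.18. All 12 were within 0.2 log2 units of 0, beside 15842 of the 21532 tested genes. Their median was 0.04, with none at an unadjusted p under 0.05 in edgeR, DESeq2 or limma, beside 4.14% to 5.04% of all genes each tool tested. The chaperonin gene *hspd1* was at 0.18 (SE 0.10), with 46.9 ± 7.53 CPM in *aldh2.1-/-* and 41.3 ± 1.03 CPM in *aldh2.1+/+* (SD, n = 5 each), and its partner *hspe1* at 0.08 (SE 0.10). With *aldh2.1-/-* clutch 3, 5 or 6 left out alone, *hspd1* had an unadjusted p under 0.05 in edgeR. So did *dnajc4*, lower in *aldh2.1-/-*, without clutch 6. In these fits 4.17%, 12.2% and 6.82% of all tested genes had such a p. The lid gene *hspe1* measured 26.5, 29.0, 22.7, 23.7 and 22.1 CPM in *aldh2.1-/-* and 26.6, 20.1, 24.7, 24.4 and 21.6 CPM in *aldh2.1+/+* clutches. The matrix Hsp70 gene *hspa9* measured 110.5, 116, 101, 97.5 and 94.7 CPM in *aldh2.1-/-* and 96.7, 106, 103, 102 and 94.2 CPM in *aldh2.1+/+* clutches, with a log2 fold change of 0.05 (SE 0.07). In both genes clutch 2 was the highest mutant clutch. For *dnaja3* the values were 36.4, 36.2, 33.9, 36.3 and 36.0 CPM in *aldh2.1-/-* and 41.2, 40.0, 35.9, 38.7 and 34.5 CPM in *aldh2.1+/+* clutches, with a log2 fold change of -0.09 (SE 0.07). The log2 fold changes were 0.03 (SE 0.08) and 0.02 (SE 0.17) for *dnajc15* and *dnajc19*, which work at the import motor of the inner membrane.

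Among the 28 other DnaJ genes tested, 19 were above 0, beside 52.1% of all tested genes, with a median of 0.05. The gene *dnajb6b*, whose human namesake keeps aggregation-prone proteins soluble and is tied to a muscle disease, measured 17.5, 15.5, 13.6, 14.6 and 13.1 CPM in *aldh2.1-/-* and 12.7, 11.9, 13.8, 12.0 and 12.1 CPM in *aldh2.1+/+* clutches. Clutch 3 of *aldh2.1+/+* was inside the mutant range and the other 4 were below it. It had a log2 fold change of 0.25 (SE 0.10), and the unadjusted p in edgeR was 0.0216, with an exact permutation p of 0.0238. In TPM the genotypes did not overlap, with 7.82 to 11.7 TPM in *aldh2.1-/-* and 7.19 to 7.80 TPM in *aldh2.1+/+* larvae. This rests on a near tie, with 7.817 TPM in *aldh2.1-/-* clutch 6 and 7.804 TPM in *aldh2.1+/+* clutch 2. The share of all tested genes without overlap was not computed in TPM. The unadjusted p stayed under 0.05 in 9 of the 10 fits that left out 1 library. Its duplicate *dnajb6a* was at -0.03 (SE 0.07).

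The values of *dnaja* were 7.41, 6.91, 6.10, 4.15 and 4.94 CPM in *aldh2.1-/-* and 4.93, 3.61, 4.79, 5.08 and 3.17 CPM in *aldh2.1+/+* clutches. Mutant clutches 1, 2 and 3 were above the *aldh2.1+/+* range and clutches 5 and 6 inside it. The log2 fold change was 0.45 (SE 0.19), with 5.90 ± 1.36 CPM in *aldh2.1-/-* and 4.32 ± 0.868 CPM in *aldh2.1+/+* (SD, n = 5 each). The unadjusted p was 0.0317 in edgeR, which stayed under 0.05 in 5 of the 10 fits, and the exact permutation p was 0.0635. The genes *dnajb1a* and *dnajb1b* encode partners of inducible Hsp70. The values of *dnajb1a* were 6.69, 8.76, 5.68, 7.35 and 9.11 CPM in *aldh2.1-/-* and 6.96, 7.03, 6.32, 6.93 and 7.25 CPM in *aldh2.1+/+* clutches. Those of *dnajb1b* were 4.58, 4.04, 4.29, 3.62 and 4.17 CPM in *aldh2.1-/-* and 3.76, 2.93, 3.52, 5.03 and 3.31 CPM in *aldh2.1+/+* clutches. The genotypes overlapped in both, with log2 fold changes of 0.12 (SE 0.13) and 0.16 (SE 0.16).

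The smallest edgeR p among members with a log2 fold change below 0 belonged to *dnajc27*, which carries a small GTPase domain. It measured 21.8, 24.1, 27.0, 26.1 and 28.5 CPM in *aldh2.1-/-* and 26.8, 28.3, 29.9, 30.1 and 27.6 CPM in *aldh2.1+/+* clutches, with 3 mutant clutches below the *aldh2.1+/+* range. The log2 fold change was -0.16 (SE 0.08), with an unadjusted p of 0.0654 in edgeR, and the log2 fold change turned to 0.01 in both limma fits on TPM. The exact permutation p was 0.0635 for *dnajc27*, and it was smaller for *dnajb14*, at 0.0556, and *dnajc5gb*, at 0.0317. Their log2 fold changes were -0.20 (SE 0.10) and -0.16 (SE 0.09), with unadjusted p of 0.0760 and 0.118 in edgeR. Of the abundant genes, *dnajc5* ENSDARG00000042948 measured 65.9, 60.8, 70.104, 51.0 and 52.1 CPM in *aldh2.1-/-* and 60.5, 64.6, 55.7, 64.5 and 66.3 CPM in *aldh2.1+/+* clutches. For *dnaja2* ENSDARG00000104066 the values were 97.3, 114, 104, 108 and 112 CPM in *aldh2.1-/-* and 108, 105, 108, 106 and 103 CPM in *aldh2.1+/+* clutches. They were at -0.05 (SE 0.09) and 0.01 (SE 0.06) in log2 fold change, and the mutant clutches spread more widely than the *aldh2.1+/+* clutches in both. The spliceosomal *dnajc8* measured 31.4, 45.7, 41.0, 46.6 and 45.7 CPM in *aldh2.1-/-* and 47.5, 38.5, 36.5, 41.1 and 46.3 CPM in *aldh2.1+/+* clutches, with a log2 fold change of 0.00 (SE 0.11). The low *dnajc12* measured 0.539, 0.682, 1.63, 1.31 and 1.34 CPM in *aldh2.1-/-* and 1.12, 0.488, 0.969, 1.15 and 1.54 CPM in *aldh2.1+/+* clutches.

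The spread between clutches of a genotype differed by class. The median SD of log2 CPM within genotypes was 0.41 for the small heat shock genes and 0.16 for the other DnaJ genes, and 0.20 over all tested members beside 0.22 over all tested genes. The largest SDs were 0.60 for *dnajb9* ENSDARG00000016886, 0.59 for *dnajc12*, 0.58 for *hspb9*, 0.57 for *hspa12b*, 0.57 for *hspa12a* and 0.54 for *hsp90aa1.1*.

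Over all tested members, clutch 2 of *aldh2.1-/-* was the highest of the 10 libraries for 23 of the 84 tested members (27.4%), beside 9.14% of all tested genes, and the lowest for 4 (4.76%), beside 9.14%. In this clutch 64 of the 84 members lay above the *aldh2.1+/+* mean (76.2%), beside 50.6% of all tested genes, with a median deviation of 0.18 log2 units. Clutch 2 was the highest library for 7 of the 14 cytosolic Hsp70 and Hsp110 genes and 6 of the 12 mitochondrial genes, but for 3 of the 17 ER genes, 3 of the 10 small heat shock genes, 4 of the 28 other DnaJ genes and 0 of the 3 Hsp90 genes. Clutch 1 of *aldh2.1-/-* was the highest for 19 members (22.6%), beside 22.0% of all tested genes. These were 7 ER genes, 5 other DnaJ genes, 4 small heat shock genes, 2 cytosolic Hsp70 and Hsp110 genes and 1 Hsp90 gene.

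**Figure D5:**
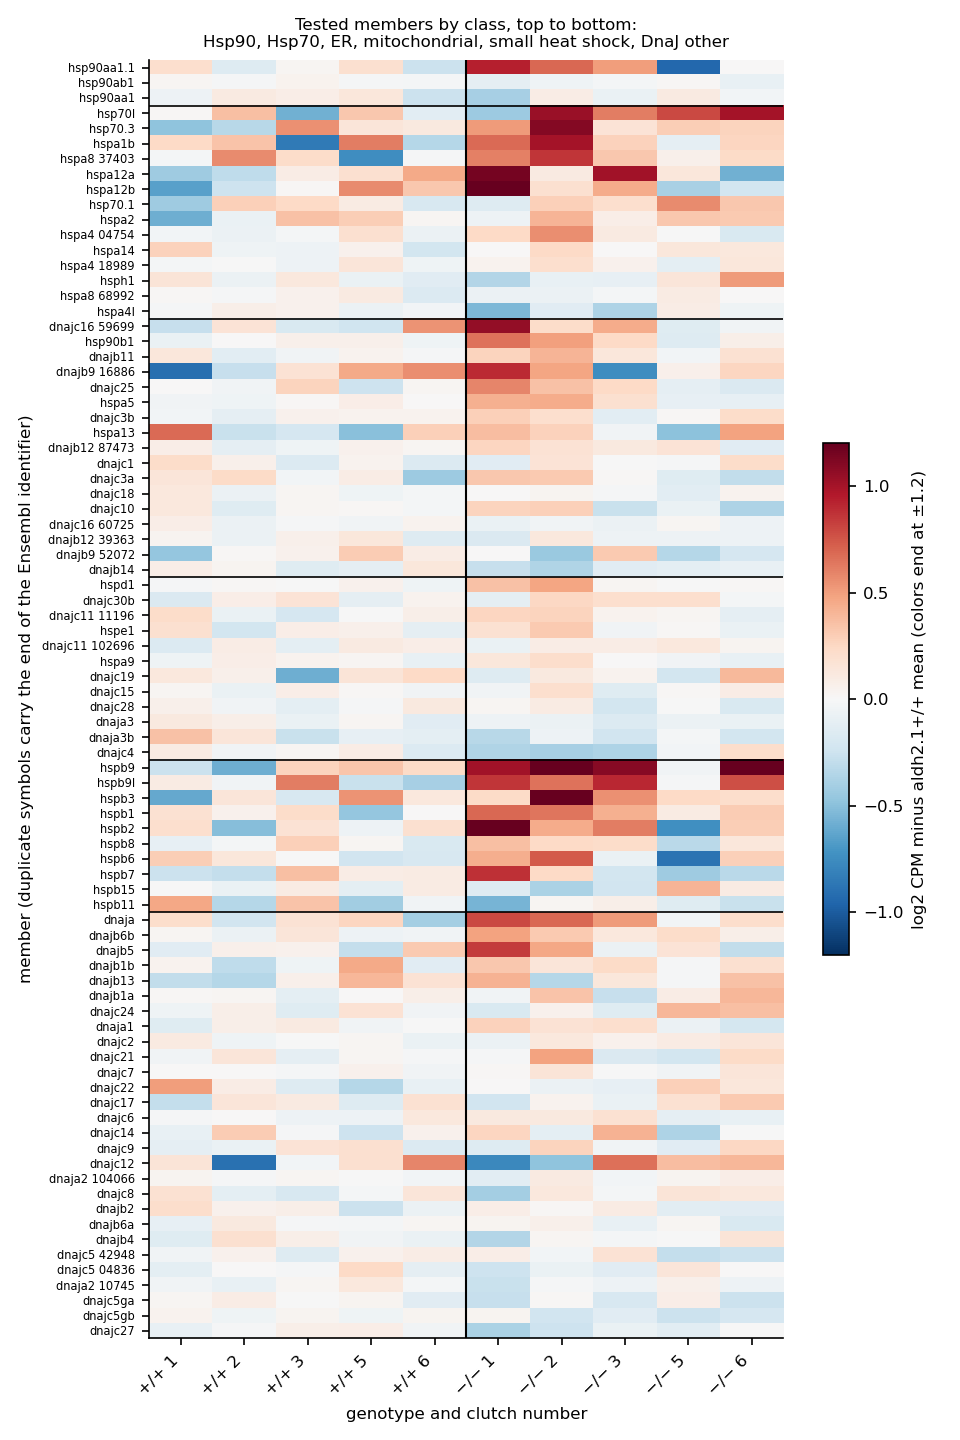
Deviation of each tested member from its *aldh2.1+/+* mean in log2 CPM, with 1 column per library, rows ordered by class, red above and blue below the mean. Red prevails in clutch 2 of *aldh2.1-/-*, where 64 of 84 members are above the mean, and the rows of *hspb9*, *hspb9l* and *hspb1* are red in clutches 1, 2, 3 and 6 of *aldh2.1-/-*.

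The other genes of the chaperone system were taken from a list of 74 regulators, partners, ER and mitochondrial chaperones, chaperonin subunits and alpha crystallins, of which 72 were tested. None had an adjusted p under 0.05 in edgeR, and 2 had an unadjusted p under 0.05 (2.78%), beside 5.04% of all tested genes. DESeq2 and both limma fits also gave 0 and 2, where 4.14% to 4.33% of all genes each tool tested had an unadjusted p under 0.05. Those in edgeR were *xbp1* and *smyd1* ENSDARG00000009280. The gene *xbp1*, a transcription factor of the unfolded protein response, was at 0.21 (SE 0.10), with 216 ± 28.7 and 186 ± 14.9 CPM in *aldh2.1-/-* and *aldh2.1+/+* larvae (SD, n = 5 each). The copy *smyd1* ENSDARG00000009280, a methyltransferase of muscle that binds Hsp90, was at -0.37 (SE 0.16). The other *smyd1* copy, ENSDARG00000091253, went the other way, at 0.29 (SE 0.145). The factor *hsf1*, which drives the inducible heat shock genes, was at 0.12 (SE 0.10), and *ddit3*, induced by prolonged ER stress, at 0.00 (SE 0.10). Of the ER chaperones outside the member list, 14 of 16 were above 0, beside 52.1% of all tested genes, with a median of 0.08. Of these 16, 13 were within 0.2 log2 units of 0, and 0 had an unadjusted p under 0.05 in edgeR. The smallest, 0.0522, belonged to *hyou1*, an Hsp110 relative of the ER, at 0.26 (SE 0.12). Of 8 genes for subunits of the cytosolic chaperonin, which folds actin and tubulin, 7 were below 0, with a median of -0.02. These 8 include both *cct2* copies, and *cct6a* was not analysed here.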

How the data were processed

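RNA from 10 pools of 50 whole larvae (BGISEQ-500 libraries) was analysed, with genotypes from the sample labels. Per the submitters' processing notes, Trim Galore 0.6.4, kallisto 0.4.6 and the build GRCz11 were used. The deposited expected counts are the authors' estimated counts per gene, not normalized. They also deposited TPM, which the authors scaled for transcript length so that libraries have equal sums. Counts need not be whole because ambiguous reads are divided between genes, and of the members 31 had whole counts in every library and 37 in none.

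Expected counts were rounded and fitted with the robust quasi-likelihood test of edgeR 4.0.16 (R 4.3.3), using TMM factors (0.948 to 1.08), the default filterByExpr and no block. Benjamini-Hochberg adjustment covered all tested genes, with a threshold of 0.05. CPM values use TMM-scaled library sizes. SDs are between clutches. Each SE was derived from the edgeR test, as the absolute log2 fold change divided by the square root of the F value. It need not match the SD between clutches. Exact permutation tests were two-sided and used all 252 splits of log2 CPM with a prior count of 2. Normalization was varied (library size alone, DESeq2 size factors), as were the filter (none, or 10 counts in each library), the tool (DESeq2 1.42.0, and limma 3.58.1 on log2 TPM with a pseudocount of 1 or 0.1), the replicate block and the libraries included. DESeq2 was run without the filter on low counts, so its shares cover genes below that filter too. The fit without *aldh2.1-/-* clutches 1 and 5 was chosen after seeing the data. Only the edgeR fit was tried on simulated counts. These held no shifts shared within a clutch, so the trial does not cover such shifts or the other tests.

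Symbols were found for 29201 genes. The rule for values in every sample took the 3 most abundant members of each class, the 10 with the smallest p, the 6 with the largest SD and the stress-inducible members. Other genes are named as examples of their class, some after their values were seen. The members, classes and lists were chosen with earlier results of these data known. No sequences were used here. Summaries used pandas 2.3.3, numpy 2.4.6 and scipy 1.17.1 under Python 3.11.15, and plots matplotlib 3.10.9.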

Additional observations from a re-analysis of the deposited data

Results flagged for a closer look

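In 66 groups of 5 clutches (the members with values in every sample, each genotype apart), a clutch far from the other 4 was looked for by the ratio of its gap to the group's range, above 0.71. This occurs by chance in about 1 in 20 groups, or 3.3 of the 66, and 2 were found. The Hsp110 gene *hspa4* ENSDARG00000018989 measured 74.9 CPM in *aldh2.1+/+* clutch 5, above the 64.9 to 67.4 CPM of the other 4 clutches (ratio 0.749). The mitochondrial DnaJ gene *dnaja3* measured 33.9 CPM in *aldh2.1-/-* clutch 3, below the 36.0 to 36.4 CPM of the other 4 (ratio 0.847).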

How the results depend on the processing

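The number of members with an adjusted p under 0.05 was 0 under every alternative except without *aldh2.1-/-* clutch 5 and without clutches 1 and 5, which each gave 1, *hspb9*. Leaving out single libraries gave 0 to 1 such members. An unadjusted p under 0.05 in edgeR was then found for 4 to 15 members (4.76% to 17.9%), beside 3.64% to 12.2% of all tested genes. Members without overlap numbered 0 to 6, beside 1.2% to 3.87% of all tested genes. Of all tested genes, 2 to 48 had an adjusted p under 0.05. In each range the highest value came without *aldh2.1-/-* clutch 5, and the cause was not tested. The unadjusted count fell to 4 (4.76%) without *aldh2.1-/-* clutch 2 and without *aldh2.1+/+* clutch 6, beside 3.88% and 4.26% of all tested genes. All tested genes at an adjusted p under 0.05 numbered 24 with DESeq2, 4 with no filter, 1 with the replicate block and 21 without clutches 1 and 5 of *aldh2.1-/-*, against 2, and the cause was not tested. With TPM in place of log2 CPM, 1 member (*dnajb6b*) had no overlap, by a near tie, and the share of all tested genes was not computed in TPM. The median log2 fold change of the members stayed between 0.05 and 0.11. Of 15 members followed through 19 alternatives, 14 kept their direction in all of them, and *dnajc27* turned from -0.16 to 0.0112 in limma on log2(TPM + 1) and to 0.0117 with a pseudocount of 0.1, and the cause was not tested. Deviations of equally numbered clutches correlated between -0.129 and 0.109, so the numbers were not taken as pairs. With the replicate block, 0 members had an adjusted p under 0.05 in edgeR. An unadjusted p under 0.05 was found for 6, beside 4.29% of all tested genes. Taking membership from RefSeq symbols was not run, because the identifiers could not be matched. Depth limits the low members: 35 averaged below 5 TPM.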
